A study of Mus musculus with 24 samples.

Results

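The transcription factors described here are outputs and repressors of the circadian clock: Dbp, Tef, Hlf, Nfil3, Nr1d1, Nr1d2, Ciart, Bhlhe40, Bhlhe41 and Rorb. Members were found through the accession that the array gives for each probe, and 16 of the 56605 non-control probes carried an accession of 9 of these 10 genes. No probe carried an accession of Rorb. A probe that the study's annotation assigns to Rorb, which the array names by a stretch of chromosome 19 alone, lies outside this rule and is given apart from the 16. In GRCm38.p6 the genes on which the results turn lie at chr7:45705100-45710203 (Dbp), chr13:52967209-52982878 (Nfil3), chr11:98767932-98775377 (Nr1d1), chr14:18204056-18239106 (Nr1d2), chr3:95878500-95882257 (Ciart) and chr15:81802673-81826863 (Tef). Where a gene had several probes, the brightest one stands for the gene below and the others are named as further probes.

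RNA came from the hippocampus of 48 male Swiss-Webster mice, 12 weeks of age, each hybridised on a 2-colour microarray with a mouse of the other treatment. Through 1 dark phase, treated mice drank water with corticosterone, the main glucocorticoid of rodents, at 100 µg/ml and hydroxypropyl-β-cyclodextrin at 0.45%, and vehicle mice drank water with the cyclodextrin alone. The animals were killed in hour 1, 5 or 9 of the following light phase, with 8 vehicle and 8 corticosterone-treated mice at each hour. Vehicle RNA was always labelled with Cy3 and corticosterone RNA always with Cy5 on the 24 arrays, which lay on 3 slides. The effect of treatment within an hour and a difference between the dyes therefore cannot be told apart, whereas a dye difference that is the same at every hour cancels between hours.

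All 8 hippocampal marker genes that were looked at, among them Prox1 of the dentate gyrus and Wfs1 of the CA1 field, gave signals well above background on all 24 arrays in both channels. So did all 7 marker genes of the neocortex and all 5 of the thalamus, so these signals do not tell the hippocampus from neighbouring tissue. Between 60.8% and 67.2% of spots were well above background in Cy3 and between 64.0% and 73.5% in Cy5, and no spot was saturated. Among the 16 member probes, 14 were well above background on all 24 arrays in both channels. The exceptions were the second probes of Ciart, above background on 17 vehicle and 23 corticosterone arrays, and of Bhlhe41, on 17 and 22. As whole hippocampi were measured, fewer cells of a type and less RNA per cell cannot be told apart in any value below.

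In the clock of mammalian cells, CLOCK and BMAL1 bind E-box sequences and switch on, among others, genes of their own repressors and several of the factors named here. DBP, TEF and HLF are PAR bZIP factors that activate genes through D-box sequences, and NFIL3 (E4BP4) binds the same sequences as a repressor. NR1D1 and NR1D2 (REV-ERBα and REV-ERBβ) are nuclear receptors that repress genes with ROR elements, the sequences through which RORβ and its relatives activate. CIART (CHRONO) represses CLOCK-BMAL1 directly, and BHLHE40 and BHLHE41 (DEC1 and DEC2) repress at E-boxes. Glucocorticoids are known to set the phase of clocks in peripheral tissues and in parts of the brain, and bind a receptor that acts at glucocorticoid response elements.

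To show where these sequences stand near the start sites, promoter windows of 300 bases (250 before and 50 after the transcript start, RefSeq, GRCm38.p6) were searched on both strands. There were 11 windows for 9 of the 10 genes, Bhlhe40 being the other. The E-box CACGTG was found in 4 of the 11 windows, both of Tef and those of Ciart and Bhlhe41, against 7.15% of all 32851 windows. The window of Ciart held 3 E-boxes, at 116, 58 and 44 bases before the start, and 29 windows in all (0.0883%) held that many. The D-box TTANGTAA was found in 1 of the 2 windows of Rorb (2.32% of all windows), and the ROR element core AGGTCA in those of Nfil3 and Nr1d2 (16.3%). The longer form TNGGTCA, which can overlap the core, was found in the window of Nfil3 and in 1 of Tef (11%). The glucocorticoid response element ACANNNTGT, found in 6.85% of all windows, was in none of the 11. A match is a stretch of letters and not a measured binding site, and a window without one says nothing of sites elsewhere in the gene.

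**Figure D1:**
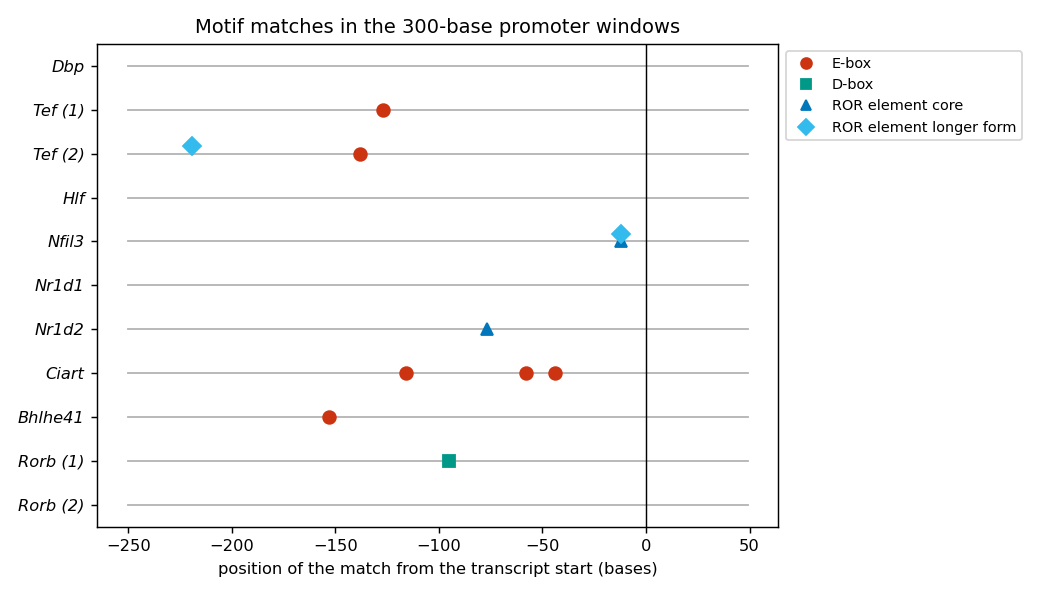
Positions of motif matches in the promoter windows of 9 genes, in bases from the transcript start (vertical line). Each grey line is 1 window of 300 bases and each symbol the first base of a match on either strand; the 3 E-boxes of Ciart stand before the start, and the windows of Dbp, Hlf and Nr1d1 hold no match.

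The stretches below are those upstream of the 3 genes that rose most over the light phase, read 5′ to 3′ on the strand of the gene and ending where the annotated gene begins, with E-boxes in capitals. For Ciart the stretch is chr3:95882258-95882478 (minus strand), for Dbp chr7:45704997-45705099 (plus strand) and for Nr1d1 chr11:98775378-98775627 (minus strand).
Ciart: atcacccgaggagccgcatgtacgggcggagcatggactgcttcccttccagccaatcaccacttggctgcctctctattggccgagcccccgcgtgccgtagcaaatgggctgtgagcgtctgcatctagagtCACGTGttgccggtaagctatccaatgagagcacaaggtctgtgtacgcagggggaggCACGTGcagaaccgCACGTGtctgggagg
Dbp: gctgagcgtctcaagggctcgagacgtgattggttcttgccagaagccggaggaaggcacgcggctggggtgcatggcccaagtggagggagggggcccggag
Nr1d1: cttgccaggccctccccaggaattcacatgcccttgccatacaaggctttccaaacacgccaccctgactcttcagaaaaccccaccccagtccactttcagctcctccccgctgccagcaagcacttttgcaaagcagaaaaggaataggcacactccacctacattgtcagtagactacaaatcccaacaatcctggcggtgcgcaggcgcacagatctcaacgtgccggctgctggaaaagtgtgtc

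The next stretches of 30 bases show the match in the genes that fell over the light phase, again in capitals: the ROR element of Nfil3 (chr13:52981040-52981069, minus strand), whose letters are those of the reverse strand, and the E-boxes of the 2 windows of Tef (chr15:81802534-81802563 and chr15:81811264-81811293, plus strand).
Nfil3: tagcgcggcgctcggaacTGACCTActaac
Tef, first start: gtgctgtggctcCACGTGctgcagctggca
Tef, second start: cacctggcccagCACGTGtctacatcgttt

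The first comparison asked how the members changed over the light phase in vehicle mice. Dbp, Nr1d1 and Ciart rose to between 1.79 and 2.14 times their level from hour 1 to hour 9, and Nfil3 and, less firmly, Tef fell by smaller amounts. Without slide 1, only the rise of Dbp passed among these changes. Between hour 1 and hour 9, 6 of the 16 probes passed an adjusted p of 0.05 (4 higher, 2 lower; limma separate channel test with Benjamini-Hochberg adjustment over all probes), against 0.516% of all probes. From hour 5 to hour 9, 3 probes passed, all higher, against 0.0318% of all probes in either direction and 0.0106% higher. From hour 1 to hour 5 no member passed in that test, against 0.0053% of all probes; 2 of the 16 had an unadjusted p under 0.05, and a fit of the Cy3 channel alone passed 1. The median log2 change from hour 1 to hour 9 was 0.09 over the 16 probes and −0.00384 over all probes.

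Dbp, the PAR bZIP activator with the best known daily rhythm, had intensities in vehicle mice from 8122 to 11314 (median 8840) at hour 1, from 7467 to 11919 (median 9637) at hour 5 and from 12154 to 19008 (median 16994) at hour 9. The hour 9 values lay above all values of both earlier hours, while those of hours 1 and 5 overlapped. Its log2 change was 0.84 ± 0.09 (SE, n = 8 per hour) from hour 1 to 9 (adjusted p = 7.44e-08 in limma) and 0.76 ± 0.09 from hour 5 to 9 (limma adjusted p = 2.2e-06), and 0.08 ± 0.09 from hour 1 to 5 (limma adjusted p = 0.891). Without slide 1 the step from hour 5 to 9 did not pass (0.72, limma adjusted p = 0.176), while the rise from hour 1 did. The further probe of Dbp rose by 0.61 ± 0.08 from hour 1 to 9 (limma adjusted p = 5.13e-06) and did not pass without slide 1 (0.57, limma adjusted p = 0.0783). Within the slides, the rise of the brightest probe was 0.89 on slide 1, 0.47 on slide 2 and 1.05 on slide 3, and 0.80 with slide as a block.

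Nr1d1, whose product represses Bmal1 and other genes with ROR elements, ranged from 352 to 497 (median 405) at hour 1, from 498 to 800 (median 658) at hour 5 and from 639 to 1036 (median 815) at hour 9 in vehicle mice. Every hour 5 value lay above every hour 1 value, and the values of hours 5 and 9 overlapped. The log2 change was 1.00 ± 0.13 (SE) from hour 1 to 9 (limma adjusted p = 7.31e-06). It was 0.63 ± 0.13 from hour 1 to 5, with a limma adjusted p of 0.124 that did not pass, and 0.38 ± 0.13 from hour 5 to 9 (limma adjusted p = 0.515). The steps to and from hour 5 thus did not pass, though the whole rise did. On the 3 slides that rise was 1.06, 0.79 and 1.07, and without slide 1 it was of similar size and did not pass. In the Cy3 channel alone the step from hour 1 to 5 passed (limma adjusted p = 0.0208), as it did without array 8 of hour 1 (limma adjusted p = 0.0279).

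Ciart, the direct repressor of CLOCK-BMAL1, ranged from 52.0 to 186 (median 143) at hour 1, from 85.3 to 207 (median 155) at hour 5 and from 184 to 336 (median 278) at hour 9. Only the edges of the hour 9 values overlapped with the earlier hours. Its log2 change was 1.10 ± 0.18 (SE) from hour 1 to 9 (limma adjusted p = 0.00011) and 0.88 ± 0.18 from hour 5 to 9 (limma adjusted p = 0.013). The step from hour 5 did not pass in the Cy3 channel alone or without any 1 slide. The rise from hour 1 differed among slides, with 0.95 on slide 1, 0.43 on slide 2 and 1.77 on slide 3. Without slide 1 this rise was of similar size and did not pass. Without array 6 of hour 1, which holds the lowest vehicle value, the rise was 0.91 ± 0.15 (limma adjusted p = 0.000258). The annotation the study used lists Gm9176 for this probe as well, so its signal may not be of Ciart alone. The further, dim probe of Ciart had a change of 0.26 ± 0.12 from hour 1 to 9 (limma adjusted p = 0.463).

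Nfil3, the D-box repressor, ran the other way: vehicle intensities were 852 to 1202 (median 1017) at hour 1, 934 to 1044 (median 990) at hour 5 and 743 to 971 (median 797) at hour 9. At hour 9 the values were mostly below those of both earlier hours, with some overlap. The log2 change was −0.34 ± 0.07 (SE) from hour 1 to 9 (limma adjusted p = 0.0107) and −0.29 ± 0.07 from hour 5 to 9 (limma adjusted p = 0.193). The fall from hour 1 to 9 did not pass with no normalization between arrays (−0.32, limma adjusted p = 0.583), without slide 1 (−0.31, 0.417) or without slide 2 (−0.32, 0.0882). Its further probe had the same size of change from hour 1 to 9, −0.34 ± 0.10, with a limma adjusted p of 0.0997, and passed with the processed signals (0.0245), without slide 3 (0.0135) and without array 7 of hour 5 (0.000807). Tef, a PAR bZIP activator like Dbp, fell from a median of 35117 (29086 to 37179) at hour 1 to 30036 (27716 to 32384) at hour 9, and had a median of 33194 (30237 to 36881) at hour 5. Its values at hours 1 and 9 overlapped, and the log2 change was −0.20 ± 0.05 (limma adjusted p = 0.0367). This fall of Tef did not pass in 10 of 21 alternatives, among them the fits without slide 1 (−0.15, limma adjusted p = 0.916) or slide 2 (−0.20, 0.157), no normalization between arrays (−0.16, 1), the Cy3 channel alone, p from offset 0 and outlier spots kept. The further probes of Tef had changes of −0.13 ± 0.06 (limma adjusted p = 0.395) and −0.05 ± 0.09 (limma adjusted p = 0.877).

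The other members did not pass between any hours in vehicle mice. From hour 1 to 9 the log2 change was 0.16 ± 0.06 (SE) for Nr1d2, the second REV-ERB (limma adjusted p = 0.257), and 0.21 ± 0.09 for Bhlhe40, an E-box repressor (limma adjusted p = 0.342). It was 0.03 ± 0.09 for Bhlhe41, the paralog of Bhlhe40 (95% interval −0.14 to 0.21), and −0.05 ± 0.10 for Hlf, the third PAR bZIP factor (−0.26 to 0.16). The vehicle medians of Hlf were 3559, 3292 and 3406 at hours 1, 5 and 9, so that the 3 PAR bZIP genes showed a rise, a small fall and no change past the threshold.

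**Figure D2:**
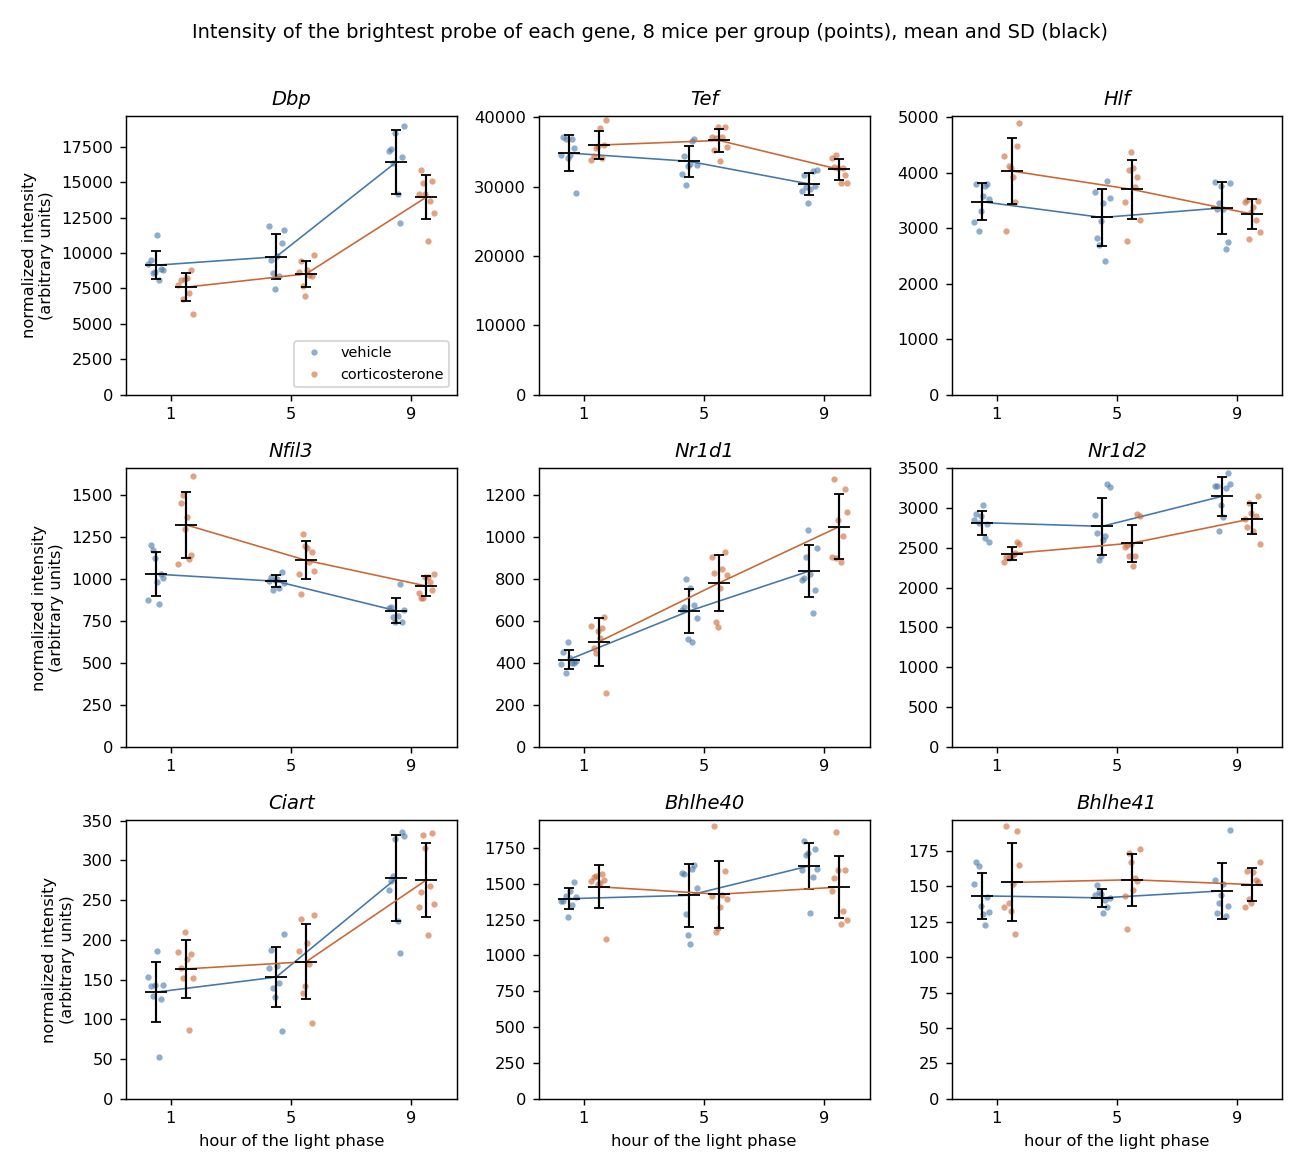
Normalized intensity (arbitrary units, from 0) of the brightest probe of each of 9 genes by hour of the light phase, in vehicle (blue) and corticosterone-treated mice (orange). Points are single mice, 8 per group, black bars the mean and SD, and lines join the means; Dbp, Nr1d1 and Ciart rise to hour 9 in both treatments, and Nfil3 falls. Heights are not comparable between panels.

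The same question was asked of the corticosterone-treated mice, in which 7 of the 16 probes passed from hour 1 to hour 9 (5 higher, 2 lower), against 3.93% of all probes. From hour 1 to 5, 1 probe passed, against 0.537%, and from hour 5 to 9, 3 passed, all higher, against 0.668% in either direction and 0.247% higher. The last count was 6 (4 higher, 2 lower) without array 8 of hour 1, and 5 (3 higher, 2 lower) with Aquantile normalization or in the Cy5 channel alone, the lower ones being 2 probes of Tef. Dbp, Nr1d1, Ciart and Nr1d2 were the genes that were higher at hour 9 than at hour 1, and Nfil3 was lower.

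In treated mice Dbp ranged from 5673 to 8819 (median 7924) at hour 1, from 6939 to 9835 (median 8576) at hour 5 and from 10833 to 15901 (median 14164) at hour 9, with no hour 9 value inside the range of an earlier hour. The log2 change was 0.88 ± 0.09 (SE) from hour 1 to 9 (limma adjusted p = 1.27e-09) and 0.71 ± 0.09 from hour 5 to 9 (limma adjusted p = 9.77e-06), a step that did not pass without slide 1 (0.65, limma adjusted p = 0.0764). Nr1d1 ranged from 256 to 620 (median 535), from 569 to 931 (median 823) and from 883 to 1277 (median 1043) at the 3 hours. All hour 9 values of Nr1d1 lay above those of hour 1. Its log2 change was 1.10 ± 0.13 from hour 1 to 9 (limma adjusted p = 3.7e-08) and 0.66 ± 0.13 from hour 1 to 5 (limma adjusted p = 0.00329). The step from hour 1 to 5 did not pass with no normalization between arrays (0.61, limma adjusted p = 0.0643), without slide 1 (0.64, 0.115) or without slide 3 (0.50, 0.255), and was 0.74, 0.33 and 0.95 within slides 1, 2 and 3.

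Ciart ranged from 86.9 to 210 (median 170) at hour 1, from 95.9 to 232 (median 178) at hour 5 and from 207 to 334 (median 265) at hour 9 in treated mice. Hour 9 was thus the highest of the 3, overlapping a little with the others. The log2 change was 0.77 ± 0.18 (SE) from hour 1 to 9 (limma adjusted p = 0.00123) and 0.71 ± 0.18 from hour 5 to 9 (limma adjusted p = 0.0143). The step from hour 5 to 9 did not pass with p from offset 0 (limma adjusted p = 0.0553), with the processed signals (0.0531), without slide 1 (0.442) or without slide 2 (0.158), and the rise from hour 1 to 9 did not pass without slide 1 (0.75, limma adjusted p = 0.136). The further, dim probe of Ciart changed by 0.09 ± 0.12 from hour 1 to 9 (limma adjusted p = 0.828). From hour 5 to 9 that probe changed by 0.44 ± 0.12 (limma adjusted p = 0.0765). Nr1d2 went from a median of 2405 (2321 to 2569) at hour 1 to 2521 (2277 to 2923) at hour 5 and 2882 (2551 to 3155) at hour 9. Hours 1 and 9 overlapped only at the edge, and the log2 change between them was 0.24 ± 0.06 (limma adjusted p = 0.00815). It did not pass with no normalization between arrays (0.26, limma adjusted p = 0.19), without slide 1 (0.20, 0.358) or without slide 2 (0.24, 0.071). The further probe of Nr1d2 gave 0.12 ± 0.07 (limma adjusted p = 0.414).

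Nfil3 ranged from 1092 to 1617 (median 1334) at hour 1, from 911 to 1266 (median 1129) at hour 5 and from 885 to 1031 (median 959) at hour 9 after corticosterone. No hour 9 value reached the lowest of hour 1. The log2 change from hour 1 to 9 was −0.45 ± 0.07 (SE; limma adjusted p = 1.78e-05), and the further probe gave −0.44 ± 0.10 (limma adjusted p = 0.00247). The further probe did not pass without slide 1 (limma adjusted p = 0.171) or slide 2 (0.0731), or with no normalization between arrays (0.0559). Tef had a change of −0.15 ± 0.05 (limma adjusted p = 0.0722) and Hlf one of −0.30 ± 0.10 (limma adjusted p = 0.0937), and neither passed; that of Tef did with Aquantile normalization (limma adjusted p = 0.0413) and in the Cy5 channel alone (0.0355). Bhlhe40 and Bhlhe41 had changes of −0.01 ± 0.09 (95% interval −0.19 to 0.17) and 0.00222 ± 0.0864 (−0.17 to 0.18).

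**Figure D3:**
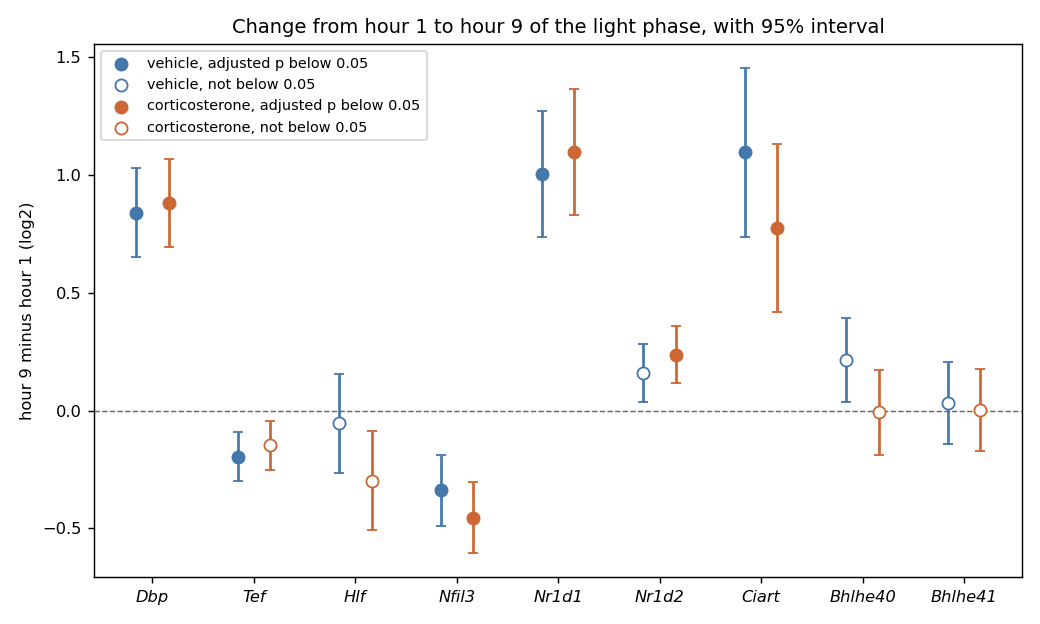
Log2 change from hour 1 to hour 9 with its 95% interval for the brightest probe of 9 genes, in vehicle (blue) and corticosterone-treated mice (orange), with filled symbols where the adjusted p was below 0.05. Nr1d1, Dbp and Ciart stand between 0.77 and 1.10 in both treatments, and Nfil3 at −0.34 and −0.45.

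The third comparison set corticosterone-treated against vehicle mice within an hour. Here and in the paragraphs on single genes that follow, an effect of corticosterone cannot be told apart from a dye difference of the probe. Nfil3 was higher after corticosterone at hours 1 and 9, and narrowly at hour 5, and Dbp was lower at hours 1 and 9 with its brightest probe and at all 3 hours with the further one. Which hours pass does not show that an effect differs between hours, which was tested apart. At hour 1, 5 of the 16 probes passed (2 higher, 3 lower), against 17.5% of all probes. At hour 5 there were 3 (2 higher, 1 lower), against 18.1%, and 5 (3 higher, 2 lower) with the authors' deposited log2 ratios. At hour 9 there were 5 (2 higher, 3 lower), against 13.9%. Without slide 1, 0 of the 16 passed at hour 9, against 3.18% of all probes. The median log2 effect over the 16 probes was 0.06, 0.08 and −0.03 at the 3 hours, and within 0.00119 of 0 over all probes. The members that passed were 31.2%, 18.8% and 31.2% of the 16 probes at the 3 hours, beside a background that is itself high.

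Nfil3 was higher in the corticosterone channel than in the vehicle channel of the same array on 23 of 24 arrays. The log2 ratio ranged from 0.15 to 0.69 (median 0.34) over the 8 arrays of hour 1, from −0.15 to 0.44 (median 0.18) at hour 5 and from 0.02 to 0.45 (median 0.26) at hour 9. All arrays of hours 1 and 9 were above 0, and 1 array of hour 5 was below. The effect was 0.36 ± 0.06 (SE) at hour 1 (limma adjusted p = 2.33e-05), 0.17 ± 0.06 at hour 5 (limma adjusted p = 0.0471) and 0.24 ± 0.06 at hour 9 (limma adjusted p = 0.00464). Its further probe gave 0.31 ± 0.09, 0.14 ± 0.09 and 0.21 ± 0.09, of which the effect at hour 1 alone passed (limma adjusted p = 0.00584, 0.244 and 0.083); that at hour 9 did in 6 alternatives, among them the limma test of log ratios (adjusted p = 0.00948). At hour 5 the effect of Nfil3 was −0.05 on slide 1, 0.32 on slide 2 and 0.15 on slide 3; at hours 1 and 9 it was above 0 on each slide. At hour 9 it did not pass without slide 1 (0.27, limma adjusted p = 0.0638) or slide 3 (0.22, 0.0581), and at hour 1 the further probe did not without slide 2 (0.30, 0.085). The hour 5 effect lay close to the threshold and did not pass in 9 of 22 alternatives. Among these were p from offset 0 (limma adjusted p = 0.0616), the processed signals of the scanner software (0.0537), an intensity trend of the variance (0.0526), the fits without slide 2 (0.07, limma adjusted p = 0.571) or slide 3 (0.187), and the fit without array 7 of that hour (0.0848).

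Dbp was lower in the corticosterone channel on 22 of 24 arrays with the brightest probe and on all 24 with the further probe. At hour 1 the log2 ratios of the brightest probe ranged from −0.63 to −0.01 (median −0.25), at hour 5 from −0.46 to 0.02 (median −0.16) and at hour 9 from −0.56 to 0.17 (median −0.22). Every array of hour 1 was below 0, and 7 of 8 were at each of the later hours. The effect was −0.27 ± 0.08 (SE) at hour 1 (limma adjusted p = 0.00907), −0.18 ± 0.08 at hour 5 (limma adjusted p = 0.089) and −0.23 ± 0.08 at hour 9 (limma adjusted p = 0.0325). With the further probe all 3 hours passed: −0.32 ± 0.07 (limma adjusted p = 0.000397), −0.26 ± 0.07 (limma adjusted p = 0.00312) and −0.31 ± 0.07 (limma adjusted p = 0.000985). With the authors' log2 ratios the brightest probe passed at hour 5 too (limma adjusted p = 0.0475). For that probe, the effect at hour 9 did not pass with the processed signals of the scanner software (−0.22, limma adjusted p = 0.0531), without slide 1 (−0.23, 0.279) or without slide 3 (−0.19, 0.183), nor that at hour 1 without slide 3 (−0.27, 0.0699). The further probe did not pass without slide 1 at hours 5 and 9 (limma adjusted p = 0.0607 and 0.0953) or without slide 3 at hour 5 (0.153). Within each of the 3 slides both probes of Dbp were lower at each hour, between −0.11 and −0.39 on the log2 scale. The ranges of the 2 treatments overlapped at each hour with the brightest probe and, with the further probe, at hours 5 and 9.

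Among the REV-ERBs, Nr1d2 was lower at hour 1, where the 8 treated mice (2321 to 2569) lay below the 8 vehicle mice (2580 to 3036). The effect was −0.21 ± 0.05 (SE; limma adjusted p = 0.00156), and −0.30, −0.28 and −0.09 on slides 1, 2 and 3. Without slide 2 it did not pass, at −0.17. At hours 5 and 9 the effect of Nr1d2 was −0.11 ± 0.05 (limma adjusted p = 0.114) and −0.13 ± 0.05 (limma adjusted p = 0.0552). The effect at hour 9 passed with the processed signals of the scanner software (−0.16, limma adjusted p = 0.0174), among probes well above background on 8 or more arrays (0.0446) and without array 7 of hour 5 (0.0445). The further probe of Nr1d2 had −0.08 ± 0.06 at hour 1 (limma adjusted p = 0.345), so the lower level rests on 1 of the 2 probes.

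Nr1d1 was higher on 21 of 24 arrays. Its effect was 0.23 ± 0.11 (SE) at hour 1 (limma adjusted p = 0.138), 0.27 ± 0.11 at hour 5 (limma adjusted p = 0.0736) and 0.33 ± 0.11 at hour 9 (limma adjusted p = 0.0313), which passed. The 2 treatments overlapped at each hour. Array 8 of hour 1, in which the treated mouse had an intensity of 256 where the next of its group had 447, bears on this order: without it the effect of Nr1d1 was 0.36 at hour 1 (limma adjusted p = 0.00897), and hour 5 passed too (limma adjusted p = 0.0307). Hour 5 also passed with no normalization between arrays (limma adjusted p = 0.0338) and without slide 2 (0.49, 0.0124). At hour 9 the effect was 0.23, 0.38 and 0.48 on the 3 slides, and it did not pass when any 1 of the slides was left out or with the processed signals of the scanner software (0.31, limma adjusted p = 0.063).

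The probes of Tef did not move together. The brightest was higher after corticosterone at hour 5 (0.13 ± 0.04, SE; limma adjusted p = 0.0245), on 8 of 8 arrays, and at hours 1 and 9 its effect was 0.05 ± 0.04 and 0.10 ± 0.04 (limma adjusted p = 0.438 and 0.0999). The hour 5 effect did not pass in the limma test of log ratios within arrays (adjusted p = 0.0723), without slide 1 (0.12, limma adjusted p = 0.0982) or without slide 2 (0.09, 0.297), whereas hour 9 passed without slide 3 (0.13, 0.0401) and without array 8 of hour 1 (0.0467). A further probe of Tef, the dimmest, was lower at hour 9, at −0.33 ± 0.07 (limma adjusted p = 0.00119), on 6 of 8 arrays. There, treated mice had 82.0 to 98.8 (median 94.3) and vehicle mice 90.3 to 142 (median 124). The hour 9 effect of this probe did not pass without slide 1 (−0.27, limma adjusted p = 0.13). At hours 1 and 5 its effect was −0.19 ± 0.07 (limma adjusted p = 0.0513) and −0.02 ± 0.07 (0.872). The remaining probe of Tef gave −0.01 ± 0.05, 0.07 ± 0.05 and 0.04 ± 0.05. The 2 further probes carry the accession of another Tef transcript than the brightest one, so a direction for the gene as a whole is not given.

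Hlf had effects of 0.20 ± 0.09, 0.21 ± 0.09 and −0.04 ± 0.09 (SE) at hours 1, 5 and 9, with limma adjusted p of 0.0909, 0.0731 and 0.805; hour 5 passed without slide 1 (0.30, limma adjusted p = 0.033). Ciart had 0.32 ± 0.15, 0.16 ± 0.15 and −0.00254 ± 0.151, with limma adjusted p of 0.145, 0.45 and 0.984; at hour 1 it passed in the limma test of log ratios (adjusted p = 0.0105), with the authors' log2 ratios (0.00379) and with no normalization between arrays (0.0279). Neither of the DEC genes passed at any hour. The effect of Bhlhe40 went from 0.08 ± 0.08 at hour 1 to −0.14 ± 0.08 at hour 9 (limma adjusted p = 0.496 and 0.183), and that of Bhlhe41 lay between 0.05 and 0.12. The further, dim probe of Bhlhe41 had the other sign at each hour (−0.17, −0.18 and −0.11 ± 0.12; limma adjusted p = 0.295, 0.269 and 0.513), so no direction is given for the gene.

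The probe that the study's annotation assigns to Rorb, an activator at ROR elements, had a mean intensity of 2404 ± 178 (SD, n = 8) in vehicle and 1800 ± 322 in treated mice at hour 1, 2523 ± 257 and 1883 ± 247 at hour 5, and 2339 ± 61.1 and 1998 ± 170 at hour 9. It was lower after corticosterone at each hour, at −0.43 ± 0.07 (SE; limma adjusted p = 5.08e-06), −0.43 ± 0.07 (limma adjusted p = 7.21e-06) and −0.23 ± 0.07 (limma adjusted p = 0.0145). Between hours it did not pass in either treatment, nor did the difference of the effect. Whether this probe reads the Rorb transcript was not tested, it was not run under the alternatives, and it is in none of the counts over the 16 probes.

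**Figure D4:**
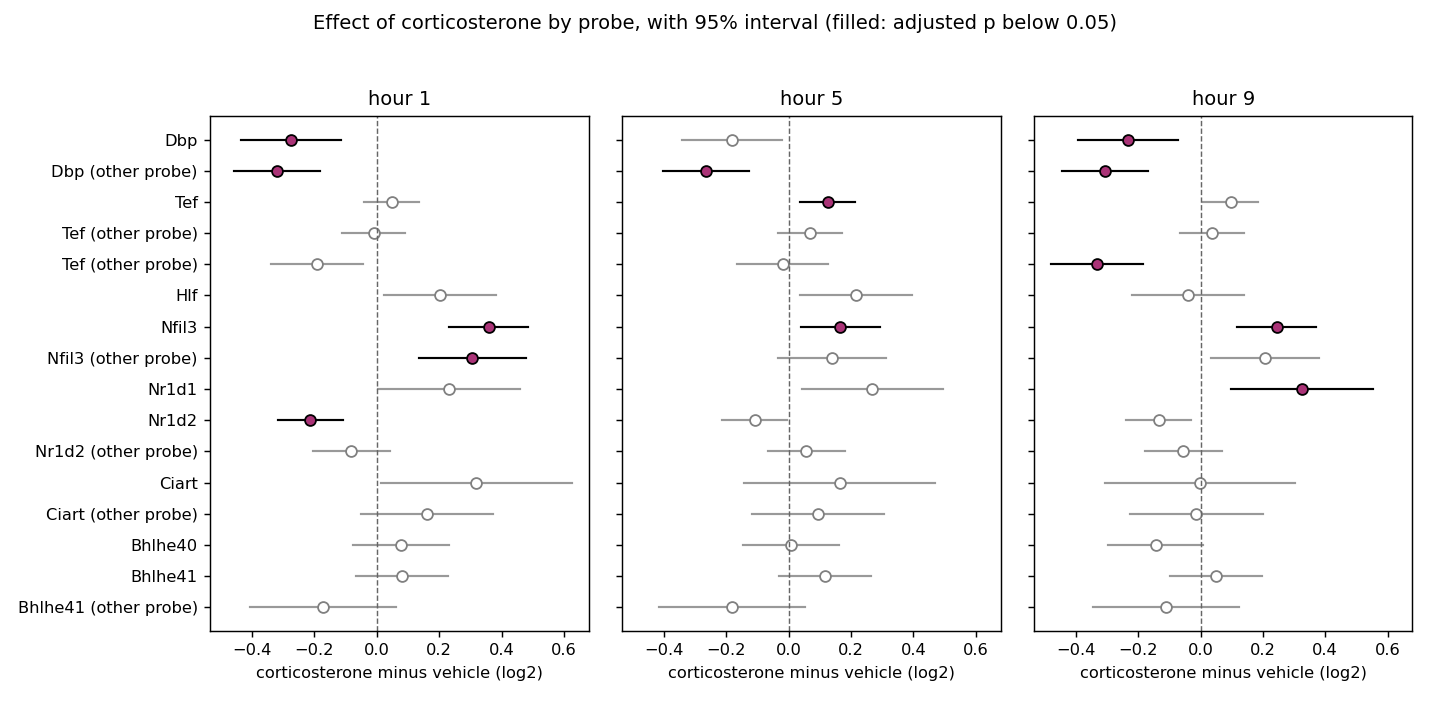
Log2 effect of corticosterone (treated minus vehicle) with its 95% interval for the 16 member probes at hours 1, 5 and 9, filled where the adjusted p was below 0.05. Nfil3 stands above 0 and Dbp below 0 at each hour, and further probes of a gene are listed under its brightest one.

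Markers of other cells moved with treatment in these hippocampi. In the comparison of treatments, 17.5%, 18.1% and 13.9% of all probes passed at hours 1, 5 and 9. At hour 1, 3 of 4 microglial marker genes were lower after corticosterone. Their summed intensity was 12731 to 14956 in vehicle and 10824 to 14612 in treated mice. Of 4 endothelial markers, 3 were lower and 1 higher at hour 1, with a summed intensity of 8414 to 10618 in vehicle and 5789 to 7648 in treated mice. At hour 9 the endothelial sums overlapped, at 7610 to 9449 and 7197 to 8231, but members went both ways: Flt1 was lower (−0.37, limma adjusted p = 0.00034) and Cldn5 higher (0.24, limma adjusted p = 0.00826), and at hour 5, 3 of the 4 passed (2 lower, 1 higher). Some markers also moved between hours 1 and 9. In treated mice, 2 of 4 microglial genes were higher at hour 9, Aif1 by 0.48 (limma adjusted p = 0.00752) and Cx3cr1 by 0.38 (1.65e-05). So were 2 of 4 endothelial genes, Tek by 0.57 (limma adjusted p = 0.000275) and Cldn5 by 0.26 (0.0369), against 3.93% of all probes. In vehicle mice Cldn5 alone of both lists passed, and was lower (−0.35, limma adjusted p = 0.0175). None of these markers was at 0, and their part in the values of the members was not tested. For the effect of corticosterone, none of 7 choroid plexus markers passed at hour 1 or 9. In treated mice 1 of the 7 was higher at hour 9 than at hour 1. A list of 9 genes known to respond to glucocorticoids was looked at as well. It was chosen with earlier results of these data known, and the paper reports several of its genes as changed. The list is therefore no independent check of the treatment. At hour 1, 8 of the 9 were higher. Among them were Fkbp5 at 0.60 (limma adjusted p = 1.81e-07) and Sgk1 at 0.71 (limma adjusted p = 5.7e-11). At hour 5, 5 of the 9 were higher and 0 lower. By hour 9 the list went both ways, with 2 higher and 5 lower, among the latter Fkbp5 at −0.27 (limma adjusted p = 0.0138).

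The last comparison asked whether the effect of corticosterone differed between hours, which is the same as whether the change over the light phase differed between treatments. No member passed in limma between hours 1 and 5, 1 and 9 or 5 and 9, against 0.0389%, 0.829% and 0.0813% of all probes. The test of log ratios passed none either, and 1, 2 and 2 of the 16 probes had an unadjusted p under 0.05 in the 3 comparisons. From hour 1 to 9 the difference was 0.04 ± 0.11 (SE; 95% interval −0.18 to 0.27) for Dbp, 0.09 ± 0.16 (−0.23 to 0.42) for Nr1d1 and −0.12 ± 0.09 (−0.29 to 0.06) for Nfil3. For Ciart it was −0.32 ± 0.21 (−0.75 to 0.11), a wider interval. The difference from hour 1 to 9 was −0.22 ± 0.11 for Bhlhe40 (limma adjusted p = 0.622) and −0.24 ± 0.13 for Hlf (limma adjusted p = 0.696), the 2 members with an unadjusted p under 0.05. For Dbp, the interval thus leaves room for a rise that is 0.18 smaller or 0.27 larger, on the log2 scale, in treated than in vehicle mice. As vehicle and treated mice were compared on the same arrays and a dye difference that is constant cancels here, these values do not carry a constant dye difference.

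Beside the members, 20 other clock genes were looked at with the brightest probe of each, a list chosen with earlier results of these data known. In vehicle mice none of the 20 passed between any hours. Of all probes, 0.0053% passed from hour 1 to 5, 0.516% from hour 1 to 9 and 0.0318% from hour 5 to 9. With shares this low, a list of 20 without a pass does not differ from all probes. In treated mice, 3 passed from hour 1 to 9, against 3.93% of all probes: Per2 fell by 0.41 (limma adjusted p = 0.000135) and Per1 by 0.20 (limma adjusted p = 0.0205), and Usp2, a clock-controlled protease, rose by 0.32 (limma adjusted p = 0.00337). The effect of corticosterone differed between hours 1 and 9 in 1 of the 20 (0.829% of all probes), Per1, at −0.30 ± 0.07 (SE; limma adjusted p = 0.00443), whose effect was 0.27 at hour 1 and −0.03 at hour 9. The effect of corticosterone passed in 9 of the 20 at hour 1 (5 higher, 4 lower), in 7 at hour 5 (4 higher, 3 lower) and in 4 at hour 9 (2 higher, 2 lower), against 17.5%, 18.1% and 13.9% of all probes. Of the partners in the activating complex, Arntl (Bmal1) was higher at hour 1 (0.28, limma adjusted p = 0.000632) and Clock lower (−0.15, limma adjusted p = 0.0186). The median change from hour 1 to 9 in vehicle mice was −0.02 over the 20 genes.

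The genes with the pattern nearest to that of 3 members were looked for among named probes with an intensity of at least 50, by the root mean square difference of log2 group means over the 6 groups, each treatment centred over its hours. For Dbp, whose own pattern had a root mean square of 0.38, the nearest of 22458 probes was Ciart, at 0.08, followed by Rbm3, a cold-inducible RNA-binding protein, at 0.14. For Nr1d1 (0.43) the nearest was Ric3, a chaperone of nicotinic acetylcholine receptors, at 0.11. Ric3 rose by 0.73 in vehicle and 0.97 in treated mice from hour 1 to 9. For Nfil3 (0.17), the nearest was Sox11, a factor of young neurons, at 0.02, with changes of −0.37 and −0.46 from hour 1 to 9. The pattern of Nfil3 is small, and likeness over 6 means is given as a description.

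**Figure D5:**
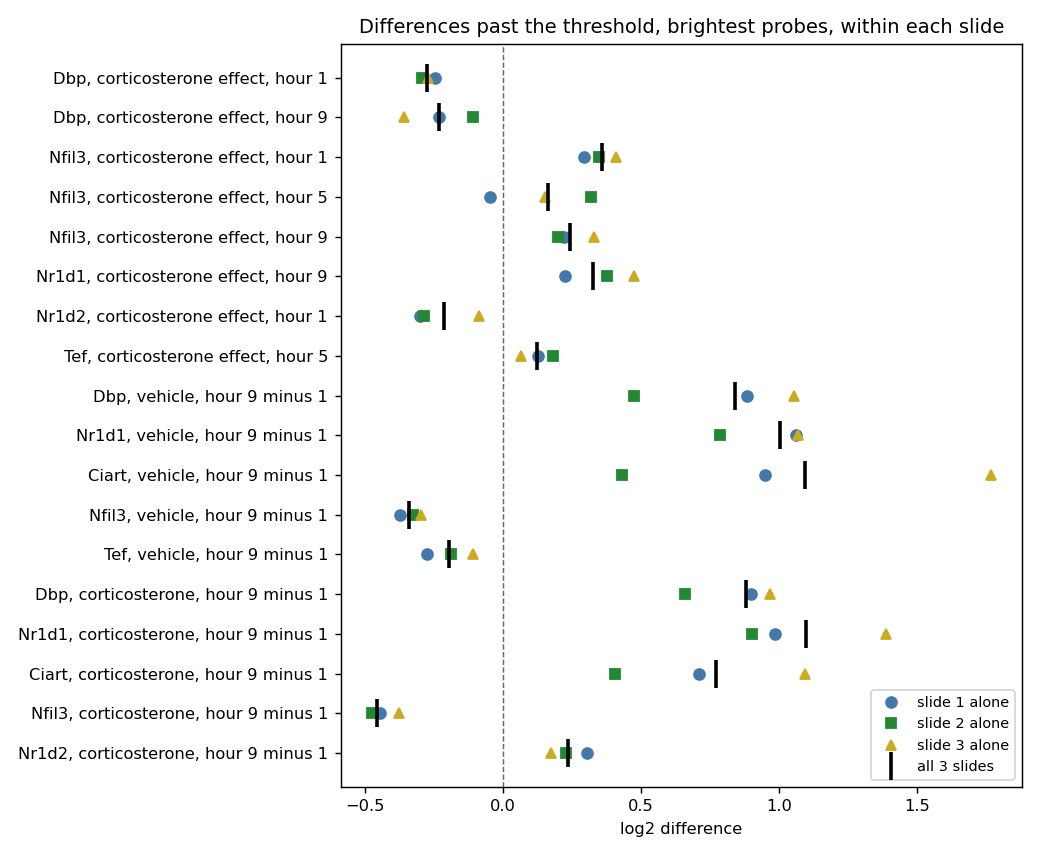
Log2 differences that passed the threshold for the brightest probes (effects of corticosterone and changes from hour 1 to 9), within slide 1 (circles), slide 2 (squares) and slide 3 (triangles) and over all 3 slides (bars). All values within a slide have the direction of the bar except Nfil3 at hour 5, at −0.05 on slide 1.

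The slides held unequal numbers of arrays per hour, 2, 2 and 4 on slide 1 and 3, 3 and 2 on slides 2 and 3 for hours 1, 5 and 9. With slide as a block the same numbers of member probes passed over the 3 comparisons of each kind: 13 for corticosterone against vehicle, 9 in vehicle and 11 in treated mice between hours, and 0 for the difference of effects. Slide 1 holds 4 of the 8 arrays of hour 9, and without it the vehicle rises of Nr1d1 (0.93, limma adjusted p = 0.0778) and Ciart (1.10, limma adjusted p = 0.143) were of similar size and did not pass. The rises of Dbp, Nr1d1 and Ciart from hour 1 to 9 were smallest on slide 2 in both treatments, at 0.47, 0.79 and 0.43 in vehicle and 0.66, 0.90 and 0.41 in treated mice. Nfil3 varied less, between −0.30 and −0.47 over the slides and treatments.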

How the data were processed

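The deposited scanner files hold median spot and background intensities of both channels, made by the authors with Agilent Feature Extraction and not normalized. A deposited table of the authors' log2 ratios (Cy5 over Cy3) lay closest to values with normexp, an offset of 50 and loess (median absolute difference 0.00119; column medians 0.00239 to 0.00889, so no centring on 0) and served as an alternative.

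Members and gene lists were chosen with earlier results of these data known. Intensities were background-corrected in R 4.3.3 with limma 3.58.1 (normexp, offset 50 for p, none for log2 changes and intensities), as in the study's methods, then normalized by loess within and quantile between arrays. Outlier spots were left out and copies of a probe averaged. The separate channel test (intraspot correlation 0.286) was fitted to all 6 groups and 56605 probes, and p adjusted by Benjamini-Hochberg in each of 12 comparisons, at 0.05. Accessions were matched to RefSeq (GRCm38.p6), which named 34566 probes. Named genes are the members, each by its brightest probe, the 20 other clock genes, 9 genes responsive to glucocorticoids, 8 marker lists and, for Dbp, Nr1d1 and Nfil3, the nearest patterns. Arrays are numbered within an hour in deposit order, and each mouse was on 1 array, 8 per group, which limits the precision. The paper states that a group held mice of several litters and that controls were siblings of treated mice. Litter did not enter the fit, so mice that share a litter were treated as separate. Alternatives were 20 planned and 3 added after seeing the data. In simulated data with the spread of these arrays, the fit recovered 65.4% of log2 effects of 0.25 and 100% of 0.5 for corticosterone at hour 1. For hour 9 against 1 in vehicle mice it recovered 54.2% and 88.5%. These effects were set on the scale with offset 50 and in few probes, so 97 and 95 probes passed, against 9925 and 292 in the data. The cutoff on p was thus stricter than in the data, most of all for corticosterone at hour 1. These shares therefore do not give the recovery in the data.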

Additional observations from a re-analysis of the deposited data

Results flagged for a closer look

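Within groups of 8 mice, the gap between the most extreme mouse and its nearest neighbour, as a share of the group's range on the log2 scale (Dixon's ratio), passed the 95% critical value in 11 of 96 groups of member probes, or 11.5%, where chance gives about 1 in 20. Array 6 of hour 1 was lowest for Ciart in both channels, at 52.0 in the vehicle mouse where the next had 126 (ratio 0.696) and at 86.9 in the treated mouse where the next had 152 (ratio 0.633), and for the further probe of Nr1d2 in the treated mouse (ratio 0.619). Array 8 of the same hour and slide was lowest for Bhlhe40 (ratio 0.858) and Nr1d1 (ratio 0.629) in the treated mouse and for Tef in the vehicle mouse (ratio 0.645). Without that array, the effect of corticosterone at hour 1 was 0.14 for Bhlhe40 (limma adjusted p = 0.193) and −0.01 for Tef (limma adjusted p = 0.904).

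Array 7 of hour 5 was lowest in both channels for the further probe of Nfil3, at 521 where the next vehicle mouse had 889 (ratio 0.781) and at 545 where the next treated mouse had 950 (ratio 0.674). The brightest probe of Nfil3 had no such value on that array. The remaining values were in vehicle mice at hour 9: Nfil3 high on 1 array (ratio 0.566), Bhlhe41 high on another (ratio 0.544) and Bhlhe40 low on yet another (ratio 0.54).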

How the results depend on the processing

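Over 14 alternatives of processing, test and slide block, 267 of 284 member results past the threshold (brightest probe, 1 result per comparison and alternative) stayed past it, 17 did not, and none changed direction. Of the others, 12 of 1066 came to pass. In 1 of the 14, offset 50 for the log2 change as well, p was that of the main fit. Its calls could therefore not change, here or in any other count of alternatives. The counts of member probes past the threshold, 13 for corticosterone against vehicle, 9 in vehicle mice, 11 in treated mice and 0 for the difference of effects, moved by more than 1.5 times in fits to part of the slides. Within slide 1 they were 3 for corticosterone against vehicle and 7 in treated mice, within slide 2 they were 4, 0 in vehicle and 0 in treated mice, within slide 3 they were 0, 0 and 1, and without slide 1 they were 8, 1 and 4; fewer arrays enter these fits. For corticosterone against vehicle, the 8 without slide 1 were 6 at hour 1, 2 at hour 5 and 0 at hour 9. The effect on Nfil3 at hour 5 was −0.046 within slide 1, the 1 reversal.

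Without 1 slide, 31 of 69 results no longer passed. Among them were the effect on Dbp at hour 1 without slide 3 and at hour 9 without slide 1 or 3, on Nfil3 at hour 9 without slide 1 or 3 and on Tef at hour 5 without slide 1 or 2. The vehicle change of Tef from hour 1 to 9 had limma adjusted p of 0.0722 with offset 0, 0.0831 in the Cy3 channel alone, 0.0507 with outlier spots kept and 1 with no normalization between arrays. The rise of Ciart from hour 5 to 9 in vehicle mice did not pass with offset 0 (limma adjusted p = 0.055), in the Cy3 channel alone (0.0896) or without any 1 of the slides (0.841, 0.109 and 0.0838 without slides 1, 2 and 3). Leaving out array 6 or 8 of hour 1 or array 7 of hour 5 kept 67 of 69 results; without array 6 of hour 1 the change of Tef had a limma adjusted p of 0.0901. Mice could not be paired across hours, because replicate numbers follow deposit order. The 2 mice of an array are paired in the fit and in the test of log ratios. Dim signal limits the second probes of Ciart and Bhlhe41.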
